A study of Mus musculus with 12 samples.

Results

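Immediate early transcription factors and the growth regulator Myc were examined in C2C12 mouse myoblasts grown in 3 media. The group holds 10 genes, chosen by name: the zinc finger factors Egr1, Egr2 and Egr3, the FOS proteins Fos, Fosb, Fosl1 and Fosl2, the JUN proteins Jun and Junb, and Myc. All 10 were found among the 26271 loci of the authors' deposited table, each in a single locus that carried no other gene symbol. All 10 were tested in all 3 pairs of media.

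C2C12 is an immortalised line of mouse myoblasts that can form muscle fibres in culture. Every group grew for 24 h in DMEM with 1 mM pyruvate, 10% fetal bovine serum and 1% antibiotic, and the groups differed in sugar: glucose at 25 mM (the high glucose group), glucose at 5 mM (the low glucose group) or galactose at 10 mM. Each group has 4 polyA RNA libraries, which makes 12 altogether, and the labels do not say whether these came from separate cultures. The design text of the series describes single muscle stem cells instead, so the sample labels were followed.

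Immediate early genes are switched on within minutes of a growth signal, without new protein synthesis. Serum and growth factors act through the MAP kinase cascade, which activates serum response factor and its ETS partners at these promoters. The mRNAs are short-lived, many through AU-rich elements in their tails. FOS and JUN proteins pair to form AP-1, which binds TGANTCA sites. Fosl1 and Fosl2 (also called Fra-1 and Fra-2) are usually expressed later and longer after a stimulus than Fos and Fosb. EGR proteins bind GC-rich sites and are held back by the corepressors Nab1 and Nab2. MYC pairs with MAX to raise genes of ribosome building and growth, and MXD and MNT proteins compete for MAX. In myoblasts, high AP-1 and MYC activity is known to go with proliferation and to hold back differentiation.

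Each value given here is 1 pooled FPKM per group (fragments per transcript length and sequencing depth), a level corrected for gene length. The deposited table has no values per library, so no SD can be given, and sequencing depth is unknown as well. Calls rest on the q of the authors, their p-value adjusted over all tests, and need it to be below 0.05. The lowest q, 0.000239, was shared by 9204 of 44006 tests in the authors' deposited table, and a called gene with no q beside it has this q. The p-values describe the spread between these libraries, which may be technical. The group values do not add up to the same total: scaling them to equal totals would lower each log2 change by 0.09 from high to low glucose and by 0.17 from high glucose to galactose. No called member, and no called gene of the lists described here, changed direction under that scaling. All 5 myoblast markers checked (Myod1, Myf5, Des, Cdh15 and Pax7) were present, with a sum of 745 FPKM (high glucose), 487 FPKM (low glucose) and 394 FPKM (galactose) in the authors' deposited table. Their fall along the same order of media as several members was measured, but its part in the members' values was not tested. Sums over 4 defining markers each of fibroblasts, adipocytes and endothelial cells were at most 1.77, 0.0236 and 0.211 FPKM in any group in the authors' deposited table. Among the fibroblast markers, Thy1 and Tcf21 were listed at 0. Of 4 macrophage markers, Emr1 (now Adgre1) was listed at 0 and Ptprc and Csf1r stayed below 0.1 FPKM, while Cd68 shares its locus with Eif4a1 and could not be read.

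The promoters of the 3 members that fell in every comparison and have a promoter in the RefSeq table (GRCm38.p6, the patch release of the mm10 build) are shown because these genes moved together. Each is the 250 bases before the annotated start. Egr2 has 5 annotated starts in the RefSeq table, and the one nearest the upstream edge of its locus was taken. Capitals mark matches, on either strand, to the CArG box that binds serum response factor, to TATAAA, to TGACG (the core of the cyclic AMP response element) and to TGACNTCA, a relative of the AP-1 site. Fos lies at chr12:85473640-85473889 (plus strand), Egr2 at chr10:67537619-67537868 (plus strand) and Jun at chr4:95052223-95052472 (minus strand).
Fos: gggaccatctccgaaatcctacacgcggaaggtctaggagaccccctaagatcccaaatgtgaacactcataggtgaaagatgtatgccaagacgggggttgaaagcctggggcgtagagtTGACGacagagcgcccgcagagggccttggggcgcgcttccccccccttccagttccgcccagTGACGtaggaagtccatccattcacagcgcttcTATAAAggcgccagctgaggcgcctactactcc
Egr2: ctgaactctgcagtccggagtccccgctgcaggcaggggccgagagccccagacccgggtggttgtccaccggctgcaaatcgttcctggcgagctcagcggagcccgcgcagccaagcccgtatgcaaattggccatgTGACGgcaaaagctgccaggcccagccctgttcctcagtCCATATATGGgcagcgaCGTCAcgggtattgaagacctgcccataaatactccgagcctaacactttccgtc
Jun: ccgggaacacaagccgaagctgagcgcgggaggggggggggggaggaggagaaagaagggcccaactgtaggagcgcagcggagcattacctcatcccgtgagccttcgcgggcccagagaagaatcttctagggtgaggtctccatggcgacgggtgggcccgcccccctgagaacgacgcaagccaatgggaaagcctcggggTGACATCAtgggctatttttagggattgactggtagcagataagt

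Promoter windows were available for 6 members: Egr2, Fos, Fosb, Fosl2, Jun and Junb. Only these 250 bases were searched, so a motif not found here may still lie further upstream or within the gene. A CArG box was found in 1 of the 6, Egr2, with its first base at position -72 from the start, and in 1.47% of the 32851 promoter windows of the RefSeq table. TGACG was present in 4 of 6 windows (Fos, Fosb, Egr2 and Junb) and in 17.8% of all windows. In Fos its matches began at -129 and -66, and in Egr2 at -111 and -55. TATAAA occurred in Fos at -33, and in 12.4% of all windows. The Jun window held TGACNTCA at -45, a motif of 7.49% of all windows. The EGR site GCGNGGGCG was found in Fosb at -50 and in Fosl2 at -79, against 4.70% of all windows. TGANTCA, TGACGTCA and the MYC site CACGTG were in none of the 6 windows, and in 6.75%, 1.55% and 6.02% of all windows. GGAAG, the core of ETS sites, was in 4 of 6 windows and in 64.1% of all. TGACG and TGACNTCA overlap with TGACGTCA and were added to the search after the sequences were seen. The Junb window lies 2353 bases from the upstream edge of the locus in the authors' deposited table, so it may not be the start that was measured.

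The members shared a compact structure in GENCODE M21, an annotation of the same build. Their longest complete coding transcripts had 1 to 4 exons: 1 in Jun and Junb, 2 in the 3 Egr genes, 3 in Myc and 4 in the 4 Fos genes. Among 10943 coding genes tested in all 3 comparisons the median was 9 exons, and 21.0% had at most 4. The AU-rich pentamer ATTTA occurred in the 3′ UTR of all 10 members, from 1 copy in Fosb and Fosl1 to 7 in Egr3 and 8 in Fosl2, against 69.7% of those coding genes. The overlapping repeat ATTTATTTA, a stronger form of the element, was found in Fos alone of the 10 and in 6.42% of the coding genes. The Fos site is shown as the example of this element, with the repeat in capitals (bases 643 to 671 of the 3′ UTR).
Fos tail: tgtgttttcaATTTATTTAttaagatgga

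From high to low glucose, 6 of the 10 members were called lower and 2 higher. Across the 14699 loci tested, 18.2% were called lower and 18.3% higher in that comparison. From high glucose to galactose, 7 members were called lower and 2 higher, against 24.8% and 26.5% of 14812 loci tested. From low glucose to galactose, 5 were called lower and 0 higher by the authors' Cuffdiff test, against 16% and 17.4% of 14495 loci tested. At an unadjusted p below 0.05, that last comparison had 6 lower and still 0 higher. The 3 comparisons share their groups, so their counts are not independent of each other. The members' median log2 changes were -0.31, -0.50 and -0.31 in that order, and the medians of all tested loci were 0.007, 0.006 and 0.01. Egr1, Egr2, Egr3, Fos and Jun were called lower in all 3 comparisons, a pattern of 5.87% of the 14243 loci tested in all 3. Myc and Fosl1 were called higher in both low glucose and galactose than in high glucose and were not called between these media, a pattern of 8.82% of those loci. Fosl2, Junb and Fosb changed little or were not called.

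**Figure D1:**
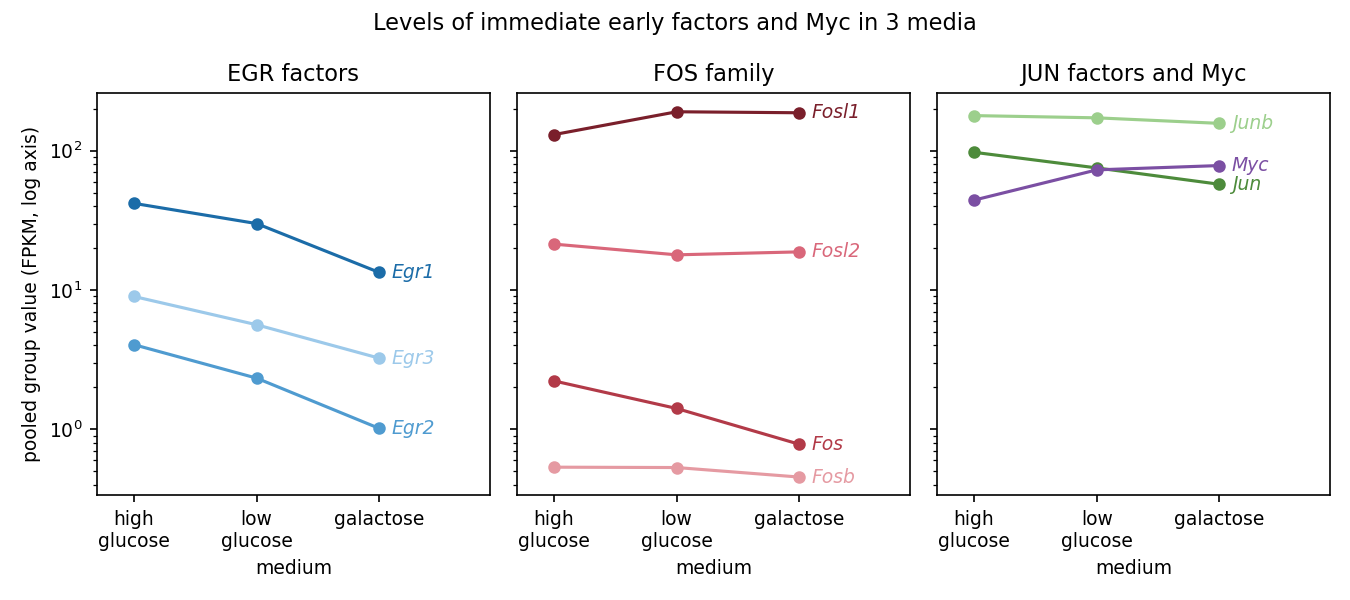
Pooled group values of the 10 members (y axis, FPKM, log scale) in the 3 media (x axis), 1 point per group with no error bar because the deposited table has no values per library. The 3 Egr genes, Fos and Jun step down from left to right, while Fosl1 and Myc step up once, between high and low glucose.

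The EGR genes encode zinc finger factors that relay growth signals to the second wave of response genes. All 3 fell with each step from high glucose through low glucose to galactose. Egr1, the most abundant of them, had 41.9 FPKM with high glucose, 29.97 FPKM with low glucose and 13.4 FPKM with galactose in the authors' deposited table. It was 1.40-fold lower in low glucose and 3.13-fold lower in galactose than in high glucose. Most of its change came at the second step: the log2 change was -0.48 from high to low glucose and -1.17 from low glucose to galactose in the authors' deposited table. Only 2.25% of 14799 tested loci had a log2 change from high glucose to galactose as low as Egr1 or lower. The locus of Egr1 (XLOC_010636) spans chr18:34861207-34864956 on the plus strand (mm10).

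Egr2, known for its role in myelinating cells and as an early response gene, fell at each step from a low level. Its level was 4.05, 2.33 and 1.01 FPKM in high glucose, low glucose and galactose in the authors' deposited table. The drop from high glucose to galactose was 3.99-fold. With a pseudocount of 1 FPKM its log2 change from high glucose to galactose was -1.33, against -1.58 for Egr1, so which of the pair changed more depends on that setting. Of the tested loci, 1.43% lay as low or lower. Egr3, a close relative that acts in muscle spindle formation, followed with 8.98, 5.63 and 3.24 FPKM according to the authors' deposited table, a 2.77-fold drop (log2 change -1.47). The levels kept the same order in every medium: Egr1 above Egr3 above Egr2. Summed FPKM of the 3 genes went from 54.9 with high glucose to 37.9 with low glucose and 17.6 with galactose, and Egr1 made up 76.3%, 79.02% and 75.9% of that sum. The loci of Egr2 (XLOC_001715) and Egr3 (XLOC_006836) span chr10:67537869-67542188 and chr14:70076907-70082864 on the plus strand (mm10).

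Nab2, a corepressor that EGR proteins themselves induce, was not called from high to low glucose, at 78.5 and 80.4 FPKM (q = 0.726), and fell to 57.9 FPKM in galactose in the authors' deposited table. The ratio of Egr1 to Nab2 in FPKM was 0.533 with high glucose, 0.373 with low glucose and 0.231 with galactose. Of 8 genes known as EGR targets, 7 were tested; 2 were called lower and 1 higher in low glucose, and 3 lower and 1 higher in galactose, both against high glucose. From low glucose to galactose, 2 were lower and 0 higher by the authors' Cuffdiff test, with the same counts at an unadjusted p below 0.05. Among all loci tested, 18.2%, 24.8% and 16% were called lower and 18.3%, 26.5% and 17.4% higher in these 3 comparisons. Pdgfb, which encodes a chain of platelet-derived growth factor, fell from 2.81 to 0.64 FPKM in low glucose and stood at 0.536 FPKM in galactose in the authors' deposited table. F3, the tissue factor gene, fell at each step, from 26.3 to 21.2 and 16.1 FPKM in the authors' deposited table. Tgfb1, a growth factor gene, fell in galactose alone, with 62.0, 57.2 and 44.7 FPKM according to the authors' deposited table (high to low glucose, q = 0.15).

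The FOS family was dominated by Fosl1. In high glucose its level was 130 FPKM, against 21.3 FPKM for Fosl2, 2.22 FPKM for Fos and 0.534 FPKM for Fosb in the authors' deposited table. The order of these 4 levels was the same in each medium. Fosl1 rose 1.46-fold to 190 FPKM in low glucose and stood at 187 FPKM in galactose in the authors' deposited table, with no call between low glucose and galactose (q = 0.83). Its log2 changes against high glucose were 0.54 and 0.52 in the authors' deposited table. Fosl1 encodes a FOS protein without the strong activation domain of FOS.

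Fos itself moved opposite to Fosl1. It went from 2.22 to 1.41 and 0.78 FPKM in the authors' deposited table, 1.58-fold lower in low glucose and 2.85-fold lower in galactose than in high glucose. Its log2 change from low glucose to galactose was -0.85. These sizes rest on low levels: with a pseudocount of 1 FPKM the log2 change of Fos against high glucose was -0.42 in low glucose and -0.86 in galactose, and the step between these media was -0.44. The ratio of Fosl1 to Fos in FPKM was 58.7 with high glucose, 135 with low glucose and 240 with galactose. Fosl2 fell 1.19-fold in low glucose, from 21.3 to 17.9 FPKM, and was at 18.8 FPKM in galactose in the authors' deposited table (q = 0.0151 against high glucose and 0.419 against low glucose). Fosb was not called in any comparison, at 0.534, 0.531 and 0.454 FPKM according to the authors' deposited table, and its lowest q was 0.224. Of the summed FPKM of the 4 genes, Fosl1 made up 84.4% with high glucose, 90.6% with low glucose and 90.3% with galactose. The share of Fos went from 1.44% to 0.671% and 0.377%. The locus of Fos (XLOC_004820) spans chr12:85473901-85477270 on the plus strand and that of Fosl2 (XLOC_017198) chr5:32136472-32157839, also on the plus strand (mm10). Fosb (XLOC_021121) lies at chr7:19302696-19310045 on the minus strand.

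The region listed for Fosl1 (XLOC_011229), chr19:5447312-5458050 (mm10), also covers Ccdc85b, a gene on the opposite strand. Whether the authors counted reads by strand is not given in the sources used here, so reads of the overlapping part cannot be assigned to one of these genes. Ccdc85b has its own locus in the authors' deposited table. The region of Jun likewise overlaps an antisense transcript, Junos.

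JUN proteins are the partners of FOS in AP-1. Jun, the strongest activator among them, fell at each step, with 97.4, 75.2 and 57.4 FPKM according to the authors' deposited table. It was 1.29-fold lower in low glucose and 1.70-fold lower in galactose than in high glucose (log2 changes -0.37 and -0.76). Junb, which can hold Jun back, was the most abundant of the AP-1 genes in high glucose, at 179 FPKM in the authors' deposited table. It was not called in low glucose, at 172 FPKM (q = 0.558), and was 1.14-fold lower in galactose, at 157 FPKM, in the authors' deposited table (q = 0.0116). The step from low glucose to galactose was not called for Junb either (q = 0.0957). Jund, the third JUN gene, was not called in any comparison, with 92.4, 84.7 and 90.2 FPKM according to the authors' deposited table and a lowest q of 0.371. The share of Jun in the summed FPKM of the 3 genes went from 26.4% with high glucose to 22.7% with low glucose and 18.8% with galactose. Jun (XLOC_016455) and Junb (XLOC_023126) lie on the minus strand at chr4:95049036-95052222 and chr8:84976787-84981101 (mm10).

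Among other AP-1 and EGR family genes and the NAB corepressors, 9 of 11 were tested. From high to low glucose, 2 were higher and 0 lower by the authors' Cuffdiff test, also at an unadjusted p below 0.05, and from high glucose to galactose 2 were higher and 1 lower. In galactose against low glucose, 1 was higher and 1 lower. Over all loci tested, 18.3%, 26.5% and 17.4% were called higher and 18.2%, 24.8% and 16% lower in these 3 comparisons. Both genes of this list that rose encode repressors able to bind AP-1 or related sites. Atf3, a stress-induced gene, went from 3.07 to 4.83 and 9.67 FPKM in the authors' deposited table. Jdp2, which encodes a JUN dimerization partner, went from 85.5 to 96.7 (q = 0.0212) and 102 FPKM according to the authors' deposited table.

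Of 14 genes known as AP-1 targets, 9 were tested, with 5 higher and 1 lower in low glucose and 5 higher and 4 lower in galactose than in high glucose. From low glucose to galactose, 3 were higher and 5 lower. The shares of all loci tested in these 3 comparisons were 18.3%, 26.5% and 17.4% higher and 18.2%, 24.8% and 16% lower. The 2 sides of one proteolytic system parted: Plau, the urokinase gene, fell from 64.6 to 44.9 and 31.9 FPKM, and Plaur, its receptor gene, rose from 103 to 133 and 192 FPKM in the authors' deposited table. Hmga1, a chromatin protein gene, rose from 38.0 to 57.4 and 72.8 FPKM in the authors' deposited table. Timp1, an inhibitor of matrix proteases, peaked in low glucose at 538 FPKM, between 327 FPKM in high glucose and 405 FPKM in galactose in the authors' deposited table (q = 0.000456 from high glucose to galactose). The matrix proteases Mmp3, Mmp9, Mmp10 and Mmp13 and the cytokine Il6 were not tested by the authors, and none of these 5 exceeded 0.191 FPKM in any group in the authors' deposited table.

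**Figure D2:**
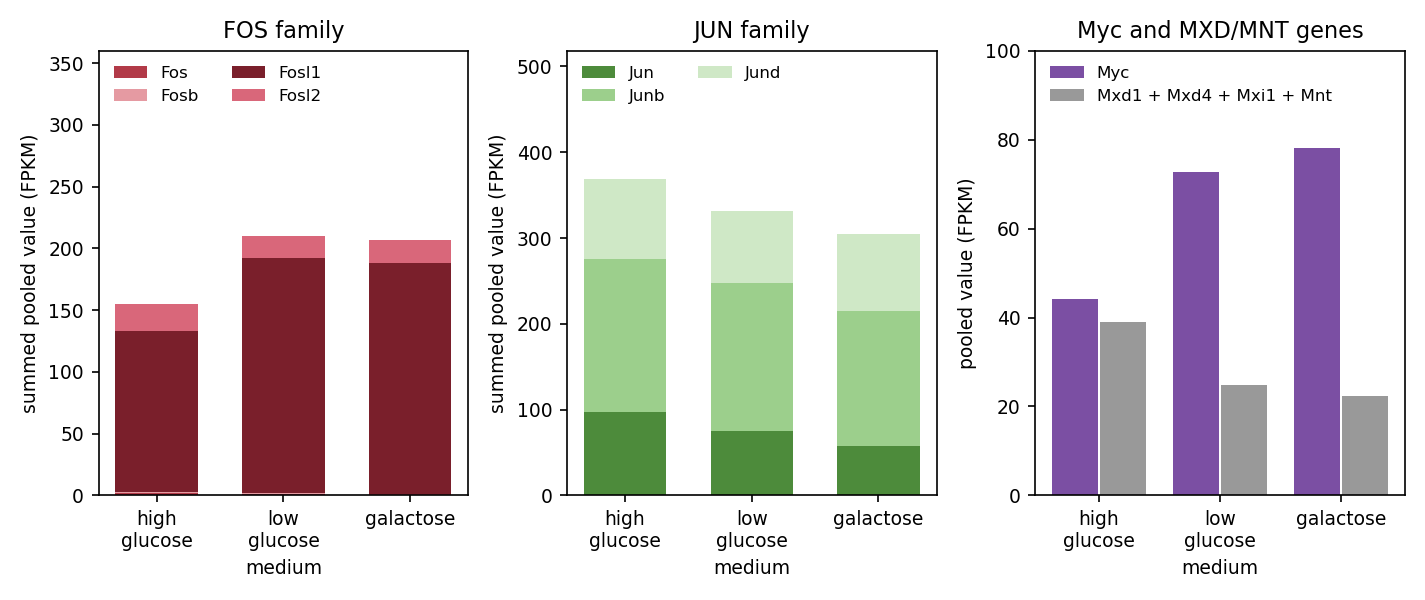
Pooled values (y axis, FPKM) stacked over the FOS genes (left) and JUN genes (middle), and Myc beside the sum of 4 genes for MAX-binding competitors (right), in the 3 media (x axis). Fosl1 fills 84.4% to 90.6% of the FOS bars, in which Fos and Fosb are too low to be seen. The Myc bar is taller in low glucose and galactose than in high glucose. In those media the sum beside it, which leaves out Mxd3, is shorter, mostly through Mxd4.

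Myc encodes the growth factor-responsive regulator of ribosome building and metabolism. Its level rose from 44.2 FPKM in high glucose to 72.8 FPKM in low glucose, a 1.65-fold rise, and stood at 78.2 FPKM in galactose in the authors' deposited table. The log2 changes against high glucose were 0.72 and 0.82 in the authors' deposited table, and low glucose and galactose were not told apart (q = 0.205). Of the tested loci, 2.69% had a log2 change as high as Myc or higher from high to low glucose and 5.62% from high glucose to galactose. Its log2 change in low glucose was 87.5% of that in galactose, both against high glucose. For Egr1 this share was 29.3%, for Egr2 40.0%, for Fos 43.5%, for Egr3 45.8% and for Jun 48.8%. These shares come from pooled values and carry no error. The locus of Myc (XLOC_007610) spans chr15:61985341-61990361 on the plus strand (mm10).

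Genes around MYC moved in both directions. Max, its obligate partner, was higher in low glucose (q = 0.000456) and in galactose (q = 0.00179), with 35.5, 42.7 and 42.0 FPKM according to the authors' deposited table. Mxd4, which encodes a competitor for MAX, fell from 18.2 to 6.69 and 3.11 FPKM in the authors' deposited table. Its log2 change from high glucose to galactose was -2.54. Mxd1, another competitor, fell from 1.51 to 0.801 FPKM in low glucose and had 0.77 FPKM in galactose in the authors' deposited table. Mycl, the L-MYC gene, read under its older symbol Mycl1, fell from 4.32 to 1.97 and 1.52 FPKM according to the authors' deposited table (q = 0.00215 for the second step). Mxd3 was lower too, at 76.7, 52.3 and 37.0 FPKM according to the authors' deposited table, but shares its locus with Rab24 (q = 0.00266 for the second step). The ratio of Myc to the sum of Mxd1, Mxd4, Mxi1 and Mnt in FPKM was 1.14 with high glucose, 2.94 with low glucose and 3.50 with galactose. This ratio was chosen after the values were seen, and most of the fall in its sum came from Mxd4. Mxd3 is not in the sum, which was 38.9, 24.8 and 22.3 FPKM in high glucose, low glucose and galactose. The combined locus of Mxd3 and Rab24 had a higher level than that sum in each medium, so the size of the ratio depends on leaving Mxd3 out. Mnt had 15.4, 13.7 and 15.02 FPKM according to the authors' deposited table, lower in low glucose (q = 0.0298) and not called in galactose (q = 0.695), both against high glucose. Mxi1 was not called in any comparison, with 3.82, 3.59 and 3.41 FPKM according to the authors' deposited table. Of the 14 network genes, 13 were tested, with 4 higher and 5 lower in each comparison against high glucose. From low glucose to galactose, 3 were lower and 0 higher by the authors' Cuffdiff test, with the same counts at an unadjusted p below 0.05. Among all loci tested, 18.3%, 26.5% and 17.4% were called higher and 18.2%, 24.8% and 16% lower in these 3 comparisons.

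Of 25 genes known to be activated by MYC, all were tested. This list was chosen with earlier results of these data known, so its counts are no test of MYC activity. In low glucose 21 were called higher, and in galactose 23, against high glucose. No gene of this list was called lower in any of the 3 comparisons by the authors' Cuffdiff test, and 0 were lower at an unadjusted p below 0.05. Their median log2 changes were 0.57 and 0.63 against high glucose and 0.15 from low glucose to galactose, where 11 were called higher. The shares of all loci tested were 18.3%, 26.5% and 17.4% called higher and 18.2%, 24.8% and 16% called lower in these 3 comparisons. Ncl, which encodes the nucleolar protein nucleolin, rose from 122 to 216 and 274 FPKM in the authors' deposited table. Odc1, the first enzyme of polyamine synthesis, went from 20.2 to 33.4 and 50.7 FPKM, and Ccnd2, a D-type cyclin, from 5.40 to 9.08 and 17.7 FPKM in the authors' deposited table. Srm, the spermidine synthase gene, rose from 120 to 183 and 233 FPKM (q = 0.00143 for the step from low glucose to galactose) in the authors' deposited table, in a locus shared with Masp2. Unlike Myc, all 4 were called higher from low glucose to galactose as well. These 4 were named for having the largest changes in the list, and 14 of the 25 were, like Myc, not called at that step.

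Of 8 genes known to be repressed by MYC, 7 were tested, with 4 lower and 1 higher in low glucose and 4 lower and 2 higher in galactose, both against high glucose. In galactose against low glucose, 4 were lower and 2 higher. Over all loci tested, 18.2%, 24.8% and 16% were called lower and 18.3%, 26.5% and 17.4% higher in these 3 comparisons. Gas1, a growth arrest gene, fell from 95.1 to 27.5 and 15.3 FPKM in the authors' deposited table. The cell cycle inhibitor gene Cdkn1c fell from 3.28 to 1.33 and 0.994 FPKM in the authors' deposited table, with q = 0.0122 for the second step. Gadd45a, a stress response gene, rose from 28.8 to 56.4 and 178 FPKM, and Ndrg1, another stress-responsive gene, from 31.5 FPKM in low glucose to 91.7 FPKM in galactose in the authors' deposited table.

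**Figure D3:**
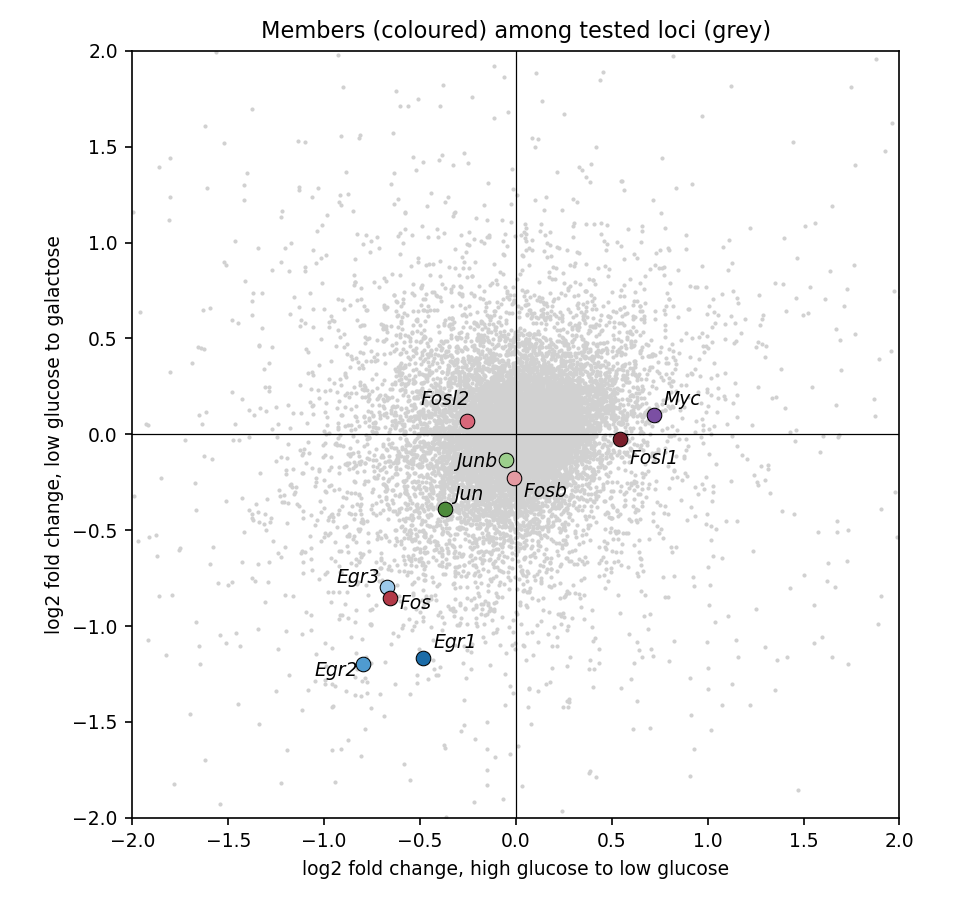
Log2 fold change from high to low glucose (x axis) against that from low glucose to galactose (y axis) for the 10 members (coloured) and the tested loci (grey); 94 of 14305 loci lie outside the axes. Egr1, Egr2, Egr3, Fos and Jun lie in the lower left part, and Myc and Fosl1 lie to the right near the horizontal line.

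Of 22 genes of the MAP kinase cascade, 7 were higher and 1 lower in low glucose and 6 higher and 1 lower in galactose than in high glucose, with medians of 0.11 and 0.12 on the log2 scale. From low glucose to galactose, 5 were higher and 4 lower, with a median of -0.02. For comparison, 18.3% of all loci tested were called higher and 18.2% lower from high to low glucose. These shares were 26.5% and 24.8% from high glucose to galactose, and 17.4% and 16% from low glucose to galactose. Map2k1, which encodes the kinase MEK1, rose from 43.7 to 52.4 (q = 0.00143) and 65.1 FPKM in the authors' deposited table. Map2k2, the MEK2 gene, was at 70.9 and 74.5 FPKM in high and low glucose (q = 0.42) and rose to 92.0 FPKM in galactose in the authors' deposited table. Rps6ka2, a kinase gene downstream of ERK, rose from 14.0 to 17.9 (q = 0.00431) and 24.1 FPKM in the authors' deposited table. Rps6ka5, which encodes a kinase of histone H3 and CREB, was lower in galactose than in low glucose, with 1.33, 1.47 and 0.929 FPKM according to the authors' deposited table (q = 0.0108). Phosphorylation, the form in which this cascade acts, was not measured.

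Srf, the serum response factor gene, was higher in low glucose (43.9 and 51.1 FPKM, q = 0.0033) and was not called in galactose, at 46.4 FPKM (q = 0.373), in the authors' deposited table. Of the 8 genes for serum response factor, its cofactors and CREB factors, 2 were higher and 0 lower in low glucose by the authors' Cuffdiff test. At an unadjusted p below 0.05 the counts were 3 and 0. Against high glucose, 1 was higher and 2 were lower in galactose. From low glucose to galactose, 1 was higher and 3 were lower, and 5 were lower at an unadjusted p below 0.05. Among all loci tested, 18.3%, 26.5% and 17.4% were called higher and 18.2%, 24.8% and 16% lower in these 3 comparisons. Crem, a gene of the CREB family, had 2.999, 3.06 and 2.31 FPKM (q = 0.0372 from high glucose to galactose), and Elk3, an ETS cofactor gene, 40.4, 41.7 and 35.3 FPKM (q = 0.0113) in the authors' deposited table. Elk1, another ETS cofactor gene, was higher in galactose at 19.0 FPKM than in high glucose at 15.2 FPKM (q = 0.00706) in the authors' deposited table, but its locus also holds Cfp.

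The list of feedback inhibitors, 16 genes whose products dampen the signal or degrade the mRNAs, had 6 higher and 3 lower in low glucose and 5 higher and 4 lower in galactose, both against high glucose. Between low glucose and galactose, 3 were higher and 5 lower in galactose. The shares of all loci tested in these 3 comparisons were 18.3%, 26.5% and 17.4% higher and 18.2%, 24.8% and 16% lower. Dusp1, an early response phosphatase gene, fell along with Fos and Jun, at 56.6, 43.9 and 38.4 FPKM according to the authors' deposited table (q = 0.0161 from low glucose to galactose). Dusp4, a related phosphatase gene, rose in galactose, with 85.2, 80.7 and 120 FPKM according to the authors' deposited table, and Dusp8 rose in low glucose, with 2.81, 4.51 and 4.93 FPKM. Errfi1, a feedback inhibitor of the EGF receptor, fell from 39.5 to 34.8 (q = 0.0177) and 18.8 FPKM in the authors' deposited table. Zfp36l1, which encodes a protein that binds AU-rich elements and promotes mRNA decay, fell from 8.91 to 5.47 FPKM in low glucose and had 5.04 FPKM in galactose in the authors' deposited table.

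Other immediate early genes did not all follow the Egr genes. Against high glucose, the calls among 20 genes were 8 higher and 4 lower in low glucose, and 7 higher and 8 lower in galactose. From low glucose to galactose 4 were higher and 9 lower. Over all loci tested, 18.3%, 26.5% and 17.4% were called higher and 18.2%, 24.8% and 16% lower in these 3 comparisons. Arc, known from neurons as an activity-regulated gene, went from 2.86 to 1.78 and 0.783 FPKM in the authors' deposited table, with log2 changes of -0.68 and -1.87 against high glucose. Gadd45b, a growth arrest and stress gene, fell from 27.4 to 20.4 and 11.4 FPKM in the authors' deposited table. Klf4 and Ctgf went the other way. Klf4, a zinc finger factor of growth arrest and stem cells, rose from 32.5 to 48.6 and 75.4 FPKM, and Ctgf, a matrix protein gene that responds to YAP and TGF-beta, from 82.2 to 115 and 176 FPKM in the authors' deposited table.

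**Figure D4:**
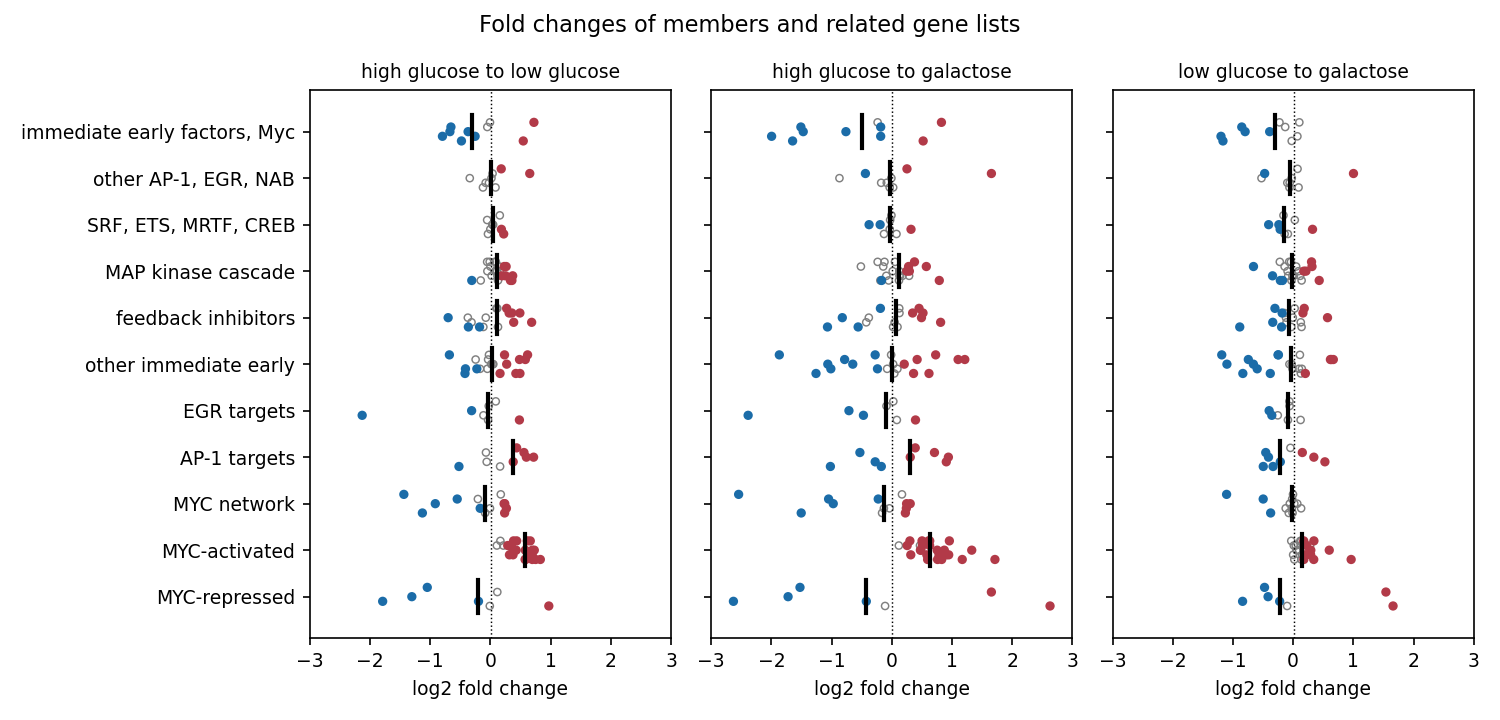
Log2 fold changes (x axis) of tested genes in each list (rows) for the 3 comparisons (panels); red points were called higher in the second medium, blue ones lower, open points were not called, the bar is the list's median and the dotted line the median of all tested loci. The 25 genes known to be activated by MYC have a median of 0.57 in the first panel and 0.63 in the second.

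The genes most like each member in profile were found by the distance between their pair of log2 changes (high to low glucose, low glucose to galactose), over 3 group values, among 7271 or 7272 loci (the member itself left out) with at least 5 FPKM in every group. Nearest to Fos were Fdft1, at a distance of 0.0149, and Rcn3, at 0.0337. Egr3 had Pdgfrb at 0.0266 and Rcn3 at 0.0346, and Egr2 had Hmgcs1 at 0.0665 and Cxcr4 at 0.181. For Egr1 no locus lay within 0.1. Jun was closest to Sspn and Dhrs1, at 0.00279 and 0.0136, with 37 loci within 0.1. Nearest to Myc were Optn at 0.0217 and Shmt1 at 0.0229, with 15 loci within 0.1. Fosl1 was closest to Hmga2-ps1 at 0.0316 and Unc5b at 0.0336. The profiles of small change had many neighbours, 225 within 0.1 for Fosl2 (nearest Stard3 and Rcor3) and 605 for Junb (nearest Snw1 and Cab39l). The limit of 5 FPKM left out Egr2, Egr3, Fos, Fosb and Arc, so none of these could be found as a neighbour of another gene. A likeness over 3 pooled values rests on 2 differences only.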

How the data were processed

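PolyA RNA of C2C12 cells was sequenced from 4 libraries in each of 3 media (NEBNext Ultra kit, per the labels' protocols). Build mm10, TopHat2 2.0.10, Cufflinks 2.2.0 and Cuffdiff without a version are named per the submitters' processing notes. Their settings, strand handling and normalization between libraries are not given in the sources used here. Per the file headers, the deposited table holds 1 FPKM value per group, the log2 fold change without a pseudocount, a test score (not used here), and a p-value and q-value for each pair of groups. The q-value equals the Benjamini-Hochberg adjustment over all 44006 tests with status OK, checked by recomputing it. No values per library were used and depth is unknown, so no test was refitted.

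Calls took status OK and q below 0.05. For each symbol, the locus of highest summed FPKM was taken. Start positions count from 0 in the file and were raised by 1. The members and the 10 lists of 146 related genes (all found; Hras and Mycl under older symbols) were chosen with earlier results of these data known. Named from each list were up to 4 called genes with the largest change and at least 1 FPKM, besides Srf, Max, Jund, Nab2 and Dusp1 in any case, and the 2 loci nearest each called member. Some genes that this rule names are not reported here. Loci in the search for similar profiles had 1 symbol and were tested in all 3 comparisons. Promoters came from RefSeq and gene structures from GENCODE M21, in the longest complete coding transcript. Alternatives were a q below 0.01, a minimum fold or level, adjustment within each comparison, re-centring, a pseudocount of 1 FPKM, summed loci, lists without combined loci and, chosen after seeing the data, equal totals. The adjustment and the motif search were tested on simulated data. Scripts ran in Python 3.11.15 (matplotlib 3.10.9, numpy 2.4.6, pandas 2.3.3 and scipy 1.17.1).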

Additional observations from a re-analysis of the deposited data

How the results depend on the processing

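Only re-centring and the scaling to equal totals could reverse a direction, since the other alternatives cannot change the sign of a log2 change. Re-centring, by at most 0.01, reversed none of the 30 fold changes of the members (10 genes in 3 comparisons). Under the scaling to equal totals, chosen after seeing the data, 1 reversed. The log2 change of Fosl2 from low glucose to galactose, which was not called, went from 0.07 to -0.0137. At q below 0.01, the calls of Fosl2 and Junb from high glucose to galactose were lost. Asking also for a log2 change of 1 or more in size left 0 members higher and 0 lower in low glucose against high glucose. In galactose, that limit left 0 higher and 4 lower against high glucose, and 2 lower against low glucose. The share of all tested loci that met both limits was not computed, so these counts have no background beside them. A minimum level of 1 FPKM and q adjusted separately by comparison changed no call. Re-centring and the pseudocount could not change a call, which rests on the authors' q, and summed loci could change nothing, since each member has 1 locus. The pseudocount of 1 FPKM cut the log2 changes of Fos in all 3 comparisons and of Egr2 against galactose by over 1.5 times, for Egr2 from low glucose to galactose from -1.20 to -0.72, and also the changes of Fosb, which was never called. Without loci of several symbols, the list of serum response factor and its cofactors had 0 genes higher in galactose against either glucose medium, since its 1 such gene was Elk1, and the other 58 list counts stayed within 1.5 times. No paired analysis was possible because the deposited table has 1 pooled value per group, and for the same reason no library could be left out. Depth is unknown, so no detection limit can be given for members of low FPKM such as Fosb.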
